A study of Mus musculus with 4 samples.

Results

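Collagens and the genes that process them were examined as a set of 34 genes in dermal fibroblasts that lacked ADAM9, a membrane-anchored metalloprotease, and in wild-type dermal fibroblasts. The set was named gene by gene and holds 20 collagen chains outside type IV and 14 genes for crosslinking, hydroxylation, folding and cleavage of collagen. Of the 34 genes, 33 had a probe set annotated to that gene alone, among 18193 genes so named on the array. Loxl2, a lysyl oxidase relative, is the missing one, since its probe sets carry a second gene name, and it was not analysed here. A filter on low values kept 32 of the 33 among 13271 genes tested, and the transmembrane collagen Col13a1 was the 1 left out.

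The knockout group was adam9 -/- and the wild-type group adam9 +/+, both of them primary fibroblasts from mouse skin at postnatal day 1. Each genotype had 2 isolations (n = 2), with 1 array per isolation. The cells were grown for 48 h without treatment. Strain, sex and the number of animals behind an isolation are not stated, so p-values measure the spread between these isolations, which may be technical. Values are deposited array values taken as log2, so that a difference of 1 is a 2-fold difference.

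Collagen chains fold into triple helices inside the cell, where prolyl and lysyl hydroxylases modify them and a dedicated chaperone holds them. Outside the cell, proteinases cut the procollagen ends, fibrils assemble, and lysyl oxidases crosslink them. In skin, types I, III and V form the fibrils of the dermis. Type VI forms beaded filaments around cells, fibril-associated collagens coat the fibrils, and type VII anchors the epidermis to the dermis.

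Adam9 had 8.33 and 8.55 in the knockout, against 11.58 and 11.70 in the wild type (difference -3.20, limma adjusted p = 0.0242). Where its probe set lies relative to the deleted part is not stated. Sex-linked genes differed exactly as the genotypes did. Xist had 10.38 and 10.40 in the knockout, against 4.29 and 4.32 in the wild type, with Eif2s3y, Kdm5d and Uty high in the wild-type arrays only, so sex and genotype cannot be told apart. No collagen or processing gene of the set lies on the X or Y chromosome. All 11 measured proliferation genes were higher in both knockout arrays than in both wild-type arrays, beside 23.0% of all genes tested. Of 18 macrophage and leukocyte markers, the median value was 4.21 and 4.36 in knockout isolations 1 and 2, and 8.40 and 4.62 in wild-type isolations 1 and 2. Their values summed on the linear scale were 675 and 594 in the knockout arrays, and 12100 and 825 in the wild-type arrays. None of the markers is listed at 0 on this scale, and Ptprc, the common leukocyte antigen, had 2.75 and 2.26 in the knockout, against 7.05 and 2.80 in the wild type. All 13 fibroblast markers were above the filter, with the lowest value of any at 6.79, for Fbln1 in wild-type isolation 2. Of these markers, 4 were higher in the knockout without overlap, beside 23.0% of all genes tested. Their summed linear value was 80300 and 75600 in the knockout arrays, and 75400 and 54200 in wild-type isolations 1 and 2. In such bulk samples, fewer cells of a type and less RNA per cell cannot be told apart.

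On the probe sets used, the fibrillar collagens differed by less than 0.5 log2 units between the genotypes. Some of them were measured near the top of the array's range. Single collagens at the fibril surface and the basement membrane zone differed by more. So did Col8a2, a network-forming collagen, by 1.34, though its genotypes overlapped. Col14a1 was higher in both knockout arrays, and Col7a1 and Col12a1 were lower. Among the processing genes, Plod2 and Bmp1 showed the largest differences, both toward lower values in the knockout on the probe sets used. A second probe set of Bmp1 went the other way. None of the 32 genes passed the limma test at an adjusted p under 0.05, against 0.0678% of all genes tested (9 genes). At an unadjusted p under 0.05 the set had 5 genes, or 15.6%, beside 11.4% of all genes tested. Col14a1 and Col18a1 were on the higher side (all genes 6.18%), and Col7a1, Col12a1 and Bmp1 on the lower side (all genes 5.24%).

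For 15 of the 32 genes the values of the genotypes did not overlap, beside 45.0% of all genes tested. In 5 of them both knockout values were above both wild-type values (background 23.0%), and in 10 both were below (background 22.0%). A difference under 0.5 log2 units either way was found for 24 of the 32 genes, or 75.0%, and for 85.3% of all genes tested. The median difference was -0.043 over the set and 0.0027 over all genes tested. With 2 arrays against 2, an exact two-sided permutation test cannot go below p = 0.333, so overlap is given as a description.

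**Figure D1:**
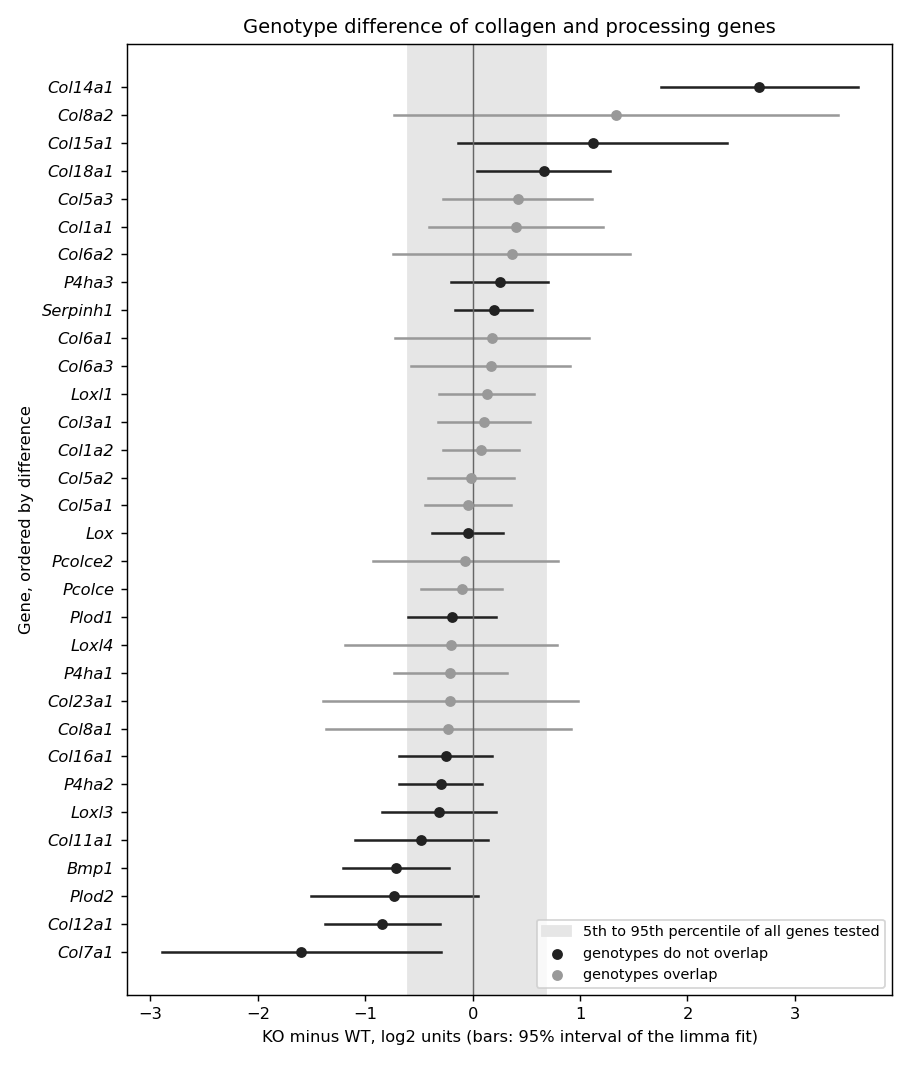
Knockout minus wild-type difference in log2 units for the 32 genes tested, ordered by size, with bars for the 95% interval of the limma fit and black points where the genotypes do not overlap. The grey band spans -0.60 to 0.68, the 5th to 95th percentile of all genes tested. Col14a1 lies farthest to the right, and Col7a1 farthest to the left.

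Fibrillar collagens build the dermal fibre. Col1a1, the alpha-1 chain of type I collagen, had 12.26 and 12.05 in the knockout, against 12.15 and 11.36 in the wild type. Col1a2, the other type I chain, stood at 14.09 and 14.08 in the knockout and at 14.09 and 13.93 in the wild type. The type III chain Col3a1 had 14.09 and 14.07 in the knockout, against 14.13 and 13.82 in the wild type. For all 3 genes the knockout arrays and wild-type isolation 1 lay close together, and wild-type isolation 2 was the lowest. The 95% interval of the difference ran from -0.40 to 1.22 for Col1a1, from -0.28 to 0.43 for Col1a2 and from -0.32 to 0.53 for Col3a1. The Col1a2 and Col3a1 probe sets used are among the brightest on the array (percentiles 99.99 and 99.98 of mean value), where a difference can be understated. Dimmer probe sets differed by 0.11 and 0.40 for Col1a2 and by 0.17 for Col3a1, all with overlap.

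Type V collagen starts fibrils and limits their width. Its chain Col5a1 had 12.50 and 12.63 in the knockout and 12.72 and 12.49 in the wild type, and Col5a2 had 13.71 and 13.55 in the knockout and 13.75 and 13.54 in the wild type. Col5a3, the less widespread chain, had 8.13 and 8.37 in the knockout and 8.15 and 7.52 in the wild type. On these probe sets the genotypes overlapped for each chain, and wild-type isolation 2 was again lowest in each, if barely so in Col5a1 and Col5a2. The probe set used for Col5a2 is again very bright (percentile 99.88), and its dimmer one had 11.55 and 11.76 in the knockout, against 11.51 and 11.08 in the wild type, a difference of 0.36 without overlap. Col11a1, a minor fibrillar chain best known from cartilage, had 9.47 and 10.05 in the knockout and 10.24 in each wild-type isolation. On the probe sets used it was the 1 fibrillar chain without overlap, at a difference of -0.48 (SE 0.230, limma adjusted p = 0.511), and its knockout isolations were further apart than the genotype means. Leaving out knockout isolation 1 gave -0.19, and leaving out knockout isolation 2 gave -0.77. Over the 7 fibrillar chains the median difference was 0.075, and every one differed by less than 0.5 log2 units.

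All 3 chains of type VI collagen, which join into 1 trimer and then into beaded filaments, showed the same order of arrays. Col6a1 had 12.04 and 12.00 in the knockout, against 12.31 and 11.37 in the wild type. Col6a2 had 12.40 and 12.41 in the knockout, against 12.62 and 11.46 in the wild type. Col6a3 had 12.69 and 12.54 in the knockout, against 12.81 and 12.09 in the wild type. For each chain wild-type isolation 1 was highest, the knockout arrays lay between, and wild-type isolation 2 was lowest. The differences of 0.18, 0.36 and 0.17 for Col6a1, Col6a2 and Col6a3 turned to -0.28, -0.22 and -0.19 without wild-type isolation 2.

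None of the 3 fibril-associated collagens overlapped between the genotypes, beside 45.0% of all genes tested without overlap, and they differed in direction. Col14a1 encodes type XIV collagen, which coats fibrils and regulates their growth. It had 6.48 and 7.29 in the knockout isolations and 4.45 and 3.97 in the wild-type isolations, with means of 6.88 ± 0.572 and 4.21 ± 0.344 (SD, n = 2 each). Both knockout values lay far above both wild-type values, a 6.36-fold higher mean on this probe set (difference 2.67, SE 0.341, limma adjusted p = 0.146). The wild-type values lay on either side of the filter value of 4.17, where a fold depends on the array's floor, and the second probe set gave a difference of 1.13. Leaving out 1 array gave 2.27 to 3.07, and the mean over its probe sets gave 1.30.

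Col12a1, which encodes type XII collagen, a relative that links fibrils to other matrix parts, went the other way. It had 11.06 and 10.78 in the knockout, against 11.95 and 11.57 in the wild type. The means were 10.92 ± 0.200 and 11.76 ± 0.264 (SD, n = 2 each), or 1.79-fold lower in the knockout (difference -0.84, SE 0.199, limma adjusted p = 0.312). Each isolation of the knockout was below each isolation of the wild type, by more than isolations of 1 genotype differed from each other. The mean over all 4 of its probe sets, of which 2 are dim, gave -0.40. Col16a1, a minor fibril-associated chain, had 9.52 and 9.51 in the knockout and 9.93 and 9.61 in the wild type, a difference of -0.25 that was -0.093 without wild-type isolation 1.

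**Figure D2:**
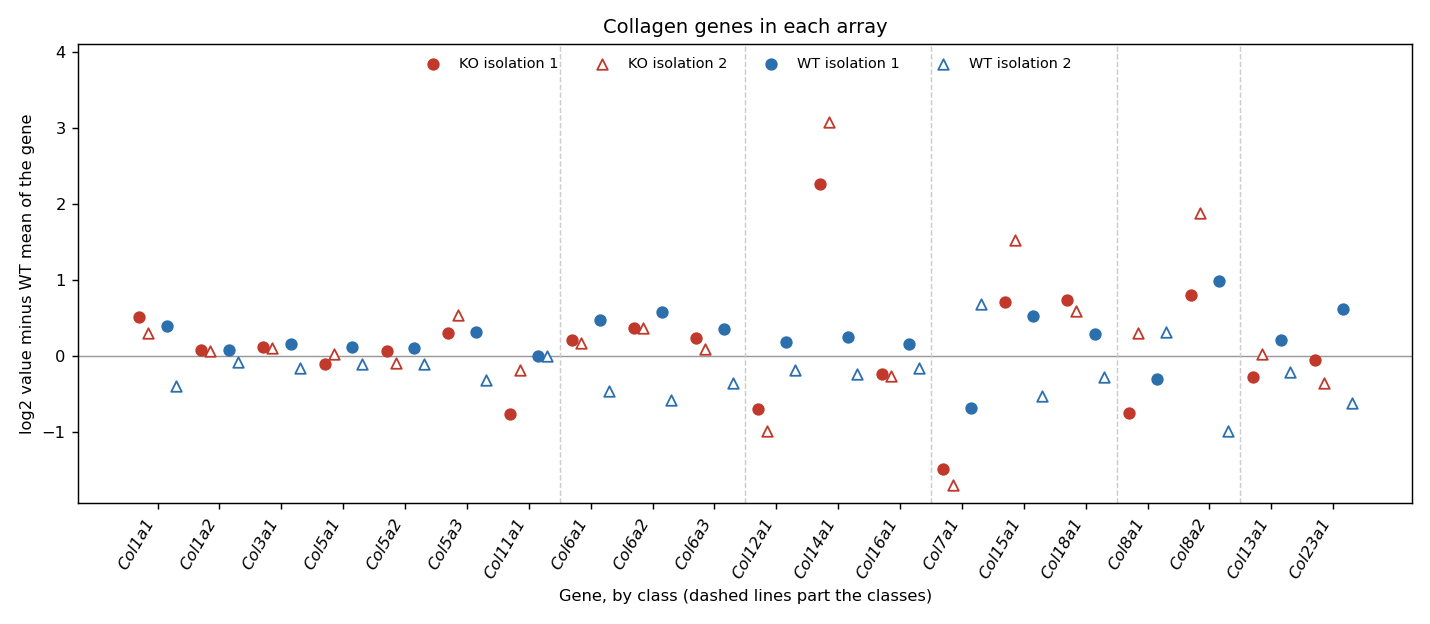
Each point is the log2 value of 1 array minus the wild-type mean of that gene, for 20 collagen genes grouped by class, with knockout arrays in red and wild-type arrays in blue. Circles stand for isolation 1 and triangles for isolation 2. Col14a1 is the gene whose knockout values stand highest above the wild-type mean, and wild-type isolation 2 lies lowest in each type VI chain.

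Collagens of the basement membrane zone also split. Type VII collagen, from Col7a1, forms the anchoring fibrils beneath the epidermis. Its 1 probe set had 8.37 and 8.16 in the knockout, against 9.17 and 10.55 in the wild type. The means were 8.27 ± 0.148 and 9.86 ± 0.971 (SD, n = 2 each), or 3.02-fold lower in the knockout (difference -1.59, SE 0.484, limma adjusted p = 0.384). The knockout arrays were alike, and the wild-type arrays lay 1.37 log2 units apart. Without wild-type isolation 2 the difference was -0.91.

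Col15a1 and Col18a1 encode the multiplexins, collagens with interrupted helices that sit at basement membranes, and type XVIII yields the fragment endostatin. Col15a1 had 6.56 and 7.38 in the knockout, against 6.38 and 5.33 in the wild type. Its lowest knockout value lay just above its highest wild-type value (difference 1.12, SE 0.466, limma adjusted p = 0.469), and the difference shrank to 0.59 without wild-type isolation 2 and to 0.70 without knockout isolation 2. Col18a1 had 8.47 and 8.33 in the knockout, against 8.02 and 7.46 in the wild type. Its genotypes did not overlap either (difference 0.66, SE 0.230, limma adjusted p = 0.423), and without wild-type isolation 2 the difference was 0.38. Its second probe set, with 7.72 and 7.63 in the knockout and 7.21 and 6.92 in the wild type, differed by 0.61.

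Upstream sequences are shown for Col7a1, the collagen with the largest negative difference, for Col15a1, a higher one of the same zone, and for Col1a2, whose genotypes overlapped. Each is the 150 bases before the RefSeq gene start on the plus strand of build GRCm38.p6, at chr9:108953436-108953585 for Col7a1, chr4:47207862-47208011 for Col15a1 and chr6:4505468-4505617 for Col1a2. Capitals mark matches, on either strand, to the GC box (GGGCGG), the CCAAT box, which has those 5 letters, or the TATA box (TATAAA). No marked matches overlap.
Col7a1: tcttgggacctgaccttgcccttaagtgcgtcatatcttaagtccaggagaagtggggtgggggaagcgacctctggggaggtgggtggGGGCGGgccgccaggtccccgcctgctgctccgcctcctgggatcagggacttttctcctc
Col15a1: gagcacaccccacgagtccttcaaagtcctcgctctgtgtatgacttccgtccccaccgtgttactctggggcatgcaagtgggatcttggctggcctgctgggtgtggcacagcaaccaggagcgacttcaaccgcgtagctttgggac
Col1a2: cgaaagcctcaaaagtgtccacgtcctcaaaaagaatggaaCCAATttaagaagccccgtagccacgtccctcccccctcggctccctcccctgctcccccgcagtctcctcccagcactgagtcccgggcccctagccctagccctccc
The Col7a1 window holds 1 GC box, the Col1a2 window holds 1 CCAAT box, and the Col15a1 window holds none of the motifs. Promoter entries were counted for 24 of the 34 genes, with 26 start sites. Lox was left out of this count, so absence from it does not mean that a gene has no entry. Of those 26 windows, 16 hold a GC box, beside 28.6% of 32851 windows of the same length over all entries, which include noncoding genes. A CCAAT box is in 4 of the 26, beside 24.5%, and a TATA box is in 1, that of Col3a1, beside 7.57%.

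Type VIII collagen, a short-chain collagen that forms open networks, did not separate the genotypes. Col8a1 had 10.58 and 11.62 in the knockout, against 11.02 and 11.63 in the wild type. Col8a2 had 6.64 and 7.72 in the knockout, against 6.83 and 4.86 in the wild type (difference 1.34, and 0.35 without wild-type isolation 2). Both overlapped, and in each gene the knockout isolations lay over 1 log2 unit apart. The transmembrane collagen Col23a1 had 4.54 and 4.24 in the knockout and 5.21 and 3.99 in the wild type, and also overlapped. Col13a1, the other transmembrane collagen, had 3.42 and 3.72 in the knockout and 3.91 and 3.49 in the wild type, below the filter.

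Among the collagens the wild-type isolations lay further apart than the knockout isolations, with median gaps of 0.62 and 0.21 log2 units. Which wild-type isolation is the unusual one cannot be told from 2 arrays. Wild-type isolation 2 was the lowest of the 4 arrays for 14 of the 19 collagens tested, or 73.7%, beside 26.0% of all genes tested. These include Col14a1, Col15a1 and Col18a1, where both wild-type values lay below both knockout values. The wild-type isolations lay over 0.5 log2 units apart for 11 of the 19 (all genes 10.2%), and the knockout isolations did so for 5 (all genes 16.9%). Isolation 2 lay over 0.5 log2 units below isolation 1 for 9 of the 19 (all genes 6.44%), and above it by as much for Col7a1 and Col8a1. The gap between the wild-type isolations was larger than the genotype difference for 13 of the 19 collagens, beside 46.6% of all genes tested. The summed value of the fibroblast markers, 2 of which are the type I chains themselves, was lowest in this array as well, and its part in the collagen values was not tested. Pdgfra, a fibroblast receptor, stood at 12.30 and 12.31 in the knockout, and at 11.93 and 10.35 in wild-type isolations 1 and 2. Not every fibroblast marker was lowest in wild-type isolation 2: Thy1, Vim, Twist2 and Prrx1 were not, and the others were. Vim had 13.79 and 13.59 in the knockout, and 13.74 and 13.81 in wild-type isolations 1 and 2. Of 11 pericyte and smooth muscle markers, 9 were lower and 2 higher in the knockout without overlap, beside 22.0% and 23.0% of all genes tested. The 2 higher ones were Abcc9 and Kcnj8, with differences of 2.51 and 2.09. The summed linear value of the 11 markers was 16600 and 15200 in the knockout arrays, and 17800 and 21100 in wild-type isolations 1 and 2. Acta2 weighs most in this sum, with 13.82 and 13.74 in the knockout, against 13.87 and 13.96 in the wild type. The part of these markers in the collagen values was not tested.

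The lysyl oxidases oxidise lysines so that collagen and elastin crosslink. Lox, the main enzyme of the family in connective tissue, had 13.44 in each knockout isolation and 13.44 and 13.53 in the wild-type isolations. Its interval ran from -0.38 to 0.28, on a bright probe set (percentile 99.77). Loxl1, needed for elastic fibres, had 11.33 and 11.62 in the knockout and 11.43 and 11.26 in the wild type. Loxl3 had 9.45 and 9.86 in the knockout and 9.87 and 10.08 in the wild type, and its genotypes were parted by a very narrow margin (difference -0.31, SE 0.197, limma adjusted p = 0.587). Without knockout isolation 1 or wild-type isolation 2 Loxl3 differed by -0.11 or -0.21, and without knockout isolation 2 by -0.52. Loxl4 had 6.88 and 5.99 in the knockout and 6.39 and 6.90 in the wild type, and overlapped, with its knockout isolations over 0.5 log2 units apart.

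Prolyl 4-hydroxylase makes the hydroxyproline that keeps the triple helix stable, and its catalytic subunits are encoded by P4ha1, P4ha2 and P4ha3. P4ha1 had 9.87 and 10.20 in the knockout and 10.09 and 10.40 in the wild type. P4ha2 had 9.73 and 9.56 in the knockout, against 10.02 and 9.86 in the wild type (difference -0.30, SE 0.143, limma adjusted p = 0.514). P4ha3 had 8.11 and 7.96 in the knockout, against 7.94 and 7.63 in the wild type. P4ha2 was thus lower and P4ha3 higher in both knockout arrays, each by less than 0.5 log2 units, while P4ha1 overlapped on the probe set used. The second probe set of P4ha1 was lower in the knockout without overlap, with 7.54 and 7.43 against 7.62 and 7.72 in the wild type.

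The lysyl hydroxylases Plod1 and Plod2 prepare the lysines used in crosslinks, Plod1 in the helix and Plod2 in the telopeptides at its ends. Plod2 had 8.56 and 8.59 in the knockout, against 8.91 and 9.69 in the wild type, or 1.66-fold lower in the knockout (difference -0.73, SE 0.289, limma adjusted p = 0.454). The knockout isolations were nearly equal, and the wild-type isolations were not, with isolation 2 the highest. Without wild-type isolation 2 the difference was -0.34, and without wild-type isolation 1 it was -1.12. Its second probe set had 7.55 and 7.31 in the knockout and 7.86 and 8.35 in the wild type, again without overlap. Plod1 had 8.46 and 8.33 in the knockout and 8.72 and 8.46 in the wild type, a difference of -0.19 that was -0.068 without wild-type isolation 1.

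Bmp1 encodes the proteinase that removes the carboxy-terminal propeptide of fibrillar procollagens, and also activates Lox. It had 9.06 and 8.69 in the knockout, against 9.49 and 9.68 in the wild type, with means of 8.87 ± 0.259 and 9.59 ± 0.136 (SD, n = 2 each). That is 1.64-fold lower in the knockout (difference -0.71, SE 0.184, limma adjusted p = 0.339). A second probe set of Bmp1 went the other way without overlap. It had 5.98 and 6.07 in the knockout and 5.95 and 5.54 in the wild type, a difference of 0.28. The mean over its 3 probe sets gave -0.18. Pcolce and Pcolce2 encode enhancers of this cleavage. Pcolce stood at 13.16 and 13.08 in the knockout and at 13.32 and 13.12 in the wild type. Pcolce2 had 8.42 and 8.27 in the knockout and 7.98 and 8.85 in the wild type. Both enhancers overlapped between the genotypes. Serpinh1, the collagen chaperone HSP47 of the endoplasmic reticulum, had 13.28 and 13.34 in the knockout, against 13.20 and 13.03 in the wild type. Its values did not overlap, and the 95% interval of its difference ran from -0.16 to 0.56, with 0.11 as its difference without wild-type isolation 2.

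**Figure D3:**
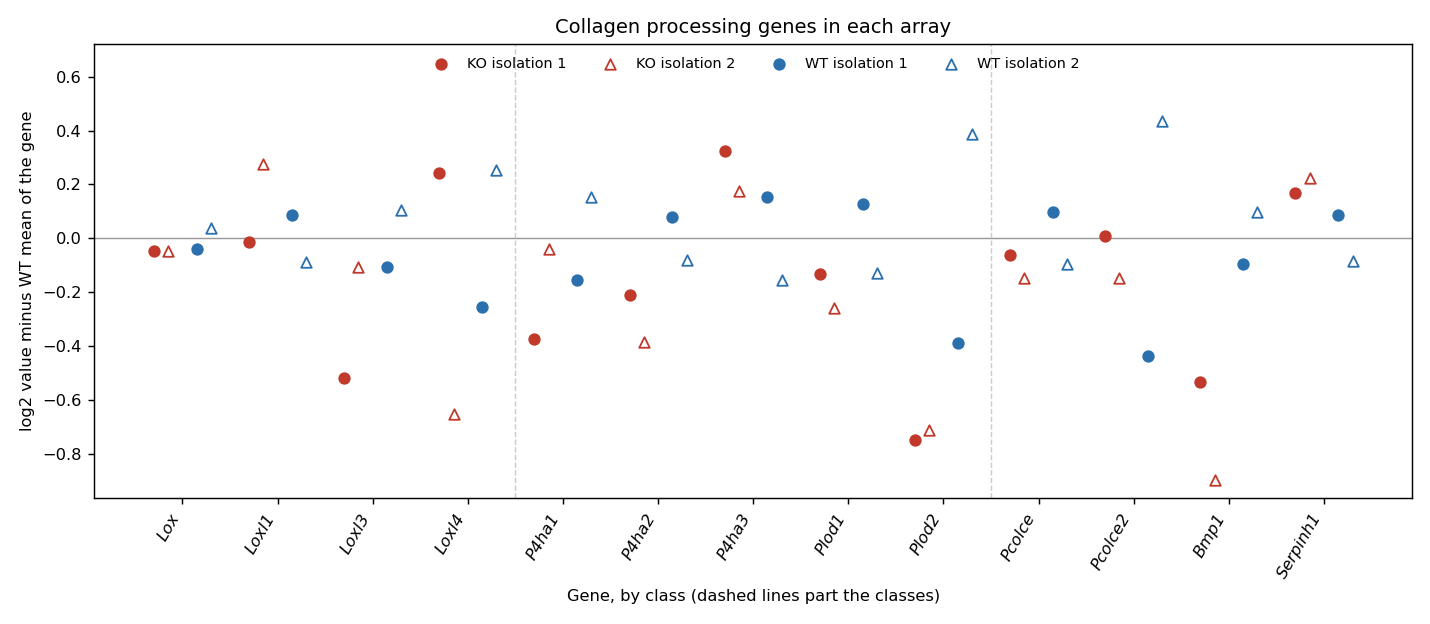
Each point is the log2 value of 1 array minus the wild-type mean of that gene, for 13 processing genes grouped by class, with knockout arrays in red and wild-type arrays in blue, circles for isolation 1 and triangles for isolation 2. Plod2 and Bmp1 have both knockout values below the wild-type values, and Serpinh1 and P4ha3 have both above them.

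Over the 13 processing genes, 6 were lower without overlap, or 46.2%, beside 22.0% of all genes tested, and 2 were higher, or 15.4%, beside 23.0%. Their median difference was -0.19, and that of the 19 collagens was 0.11. Of the 6 lower ones, Lox and Plod1 differed by less than 0.2 log2 units, with differences of -0.047 and -0.19. Lox, Plod1 and Loxl3 were parted by very narrow margins. Their highest knockout and lowest wild-type values were 13.4401 and 13.4449, 8.4563 and 8.4613, and 9.8647 and 9.8657. The other probe sets of Lox overlapped, and a second one of Bmp1 was higher in the knockout without overlap.

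Several probe sets of the same gene mostly shared the sign of the difference, but not always its size, which ran from 0.075 to 0.40 in Col1a2. Of 21 genes with more than 1 probe set above the filter value, 16 had differences of 1 sign in all of them. The same share over all genes was not computed. The 5 others were Bmp1, Col5a1, Col5a2, Loxl1 and Loxl4. In Col14a1 the second probe set had 5.40 and 6.13 in the knockout and 4.64 and 4.63 in the wild type, a difference of 1.13 against 2.67 in the probe set used. The second probe set of Col12a1 had 9.11 and 8.97 in the knockout and 9.93 and 9.54 in the wild type, a difference of -0.69. That of Col11a1 differed by -0.73, more than the -0.48 of the probe set used.

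**Figure D4:**
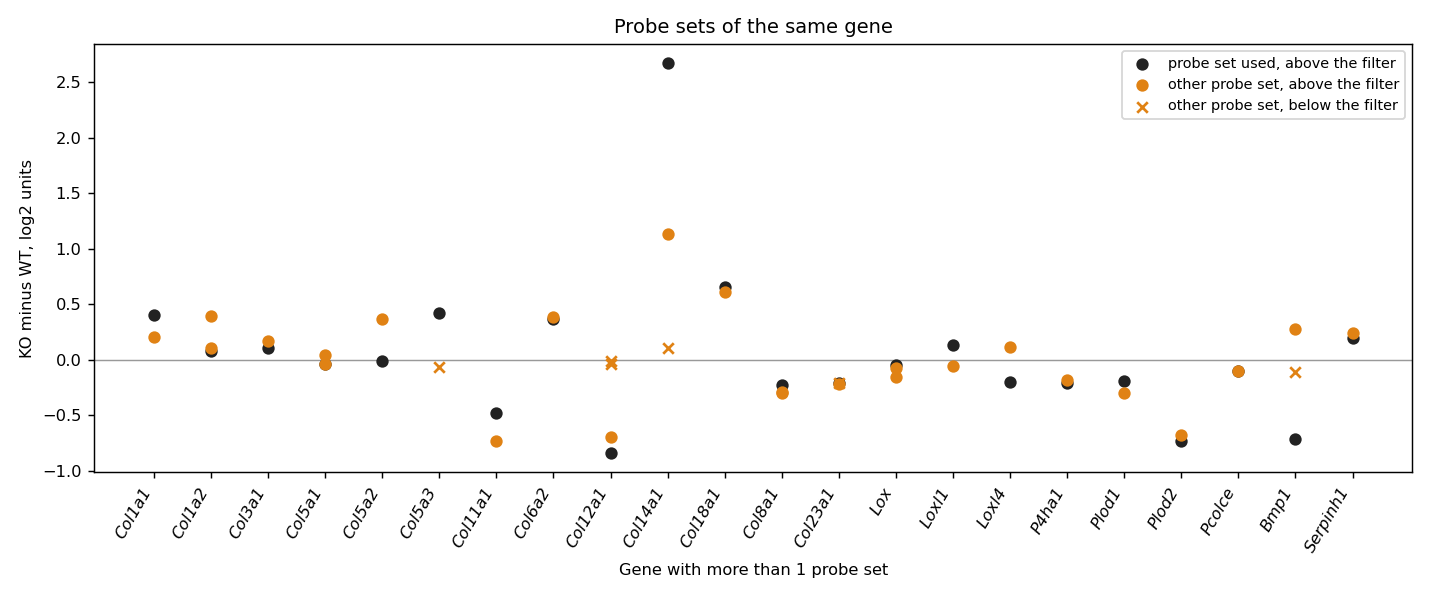
Knockout minus wild-type difference in log2 units for each probe set of the genes that have more than 1, with the probe set used in black, others in orange, and crosses for probe sets below the filter value of 4.17. The orange point of Bmp1 above the filter lies above 0 at 0.28, while its black point lies at -0.71, and Col14a1 has both points above the filter over 1.

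Around these genes stand others that fold, export, cleave, bind or degrade collagen. In 7 lists with 93 genes, 72 were tested and none passed limma, with 13 higher and 24 lower in the knockout without overlap, beside 23.0% and 22.0% of all genes tested. At an unadjusted p under 0.05 there were 1 higher and 7 lower, beside 6.18% and 5.24%. Of 20 folding and modifying genes, 3 were higher and 6 lower without overlap. Colgalt1, which adds galactose to hydroxylysine, had 9.81 and 9.84 in the knockout, against 10.40 and 10.50 in the wild type (difference -0.63, limma adjusted p = 0.269). Its isolations agreed closely within each genotype. Creb3l1, a transcription factor for type I collagen in bone, differed by 0.36, and Tmem38b, a cation channel of the endoplasmic reticulum, by -0.30. Without wild-type isolation 2 Creb3l1 differed by 0.12, and without knockout isolation 2 Tmem38b differed by -0.14.

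Among 11 export genes, 2 were higher and 4 lower without overlap, beside 23.0% and 22.0% of all genes tested. The largest differences were -0.32 for Trappc2, 0.21 for Surf4 and 0.17 for Sec13, which act in transport from the endoplasmic reticulum. Surf4 was at -0.015 without knockout isolation 2, Sec13 at 0.067 without wild-type isolation 1 and Trappc2 at -0.19 without wild-type isolation 2. Only 2 other procollagen proteinases were tested, and both overlapped. Tll1, a relative of Bmp1, had 6.42 and 8.66 in the knockout and 8.04 and 8.75 in the wild type, and Furin differed by -0.079. Without knockout isolation 1 their differences were 0.26 and 0.13. Other collagens outside type IV had 9 genes tested, with 2 higher and 1 lower without overlap, and the largest difference was -0.24, for the type IX chain Col9a3. Col9a2 and Col6a4 differed by 0.16 and 0.11, and by as little as 0.0096 and 0.035 with 1 array left out.

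Collagen receptors had 7 genes tested, of which 5 were lower and 0 higher without overlap, beside 22.0% and 23.0% of all genes tested. Ddr1, a receptor tyrosine kinase for collagen, had 9.63 and 9.21 in the knockout, against 10.02 and 10.16 in the wild type (difference -0.67, limma adjusted p = 0.368). Mrc2, which takes up collagen for breakdown, had 10.51 and 10.61 in the knockout, against 11.18 and 10.86 in the wild type, and Itgb1, the common beta subunit of collagen-binding integrins, differed by -0.33. Without wild-type isolation 1 Mrc2 differed by -0.30 rather than -0.46, and without wild-type isolation 2 Itgb1 differed by -0.19. These receptor values were lower in both knockout arrays without passing the test.

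Among 10 genes of collagen degradation and its inhibition, 2 were higher and 4 lower without overlap, beside 23.0% and 22.0% of all genes tested. The inhibitors Timp1 and Timp2 went opposite ways. Timp1 had 12.16 and 13.26 in the knockout, against 11.61 and 11.93 in the wild type (difference 0.94, limma adjusted p = 0.477; 0.39 without knockout isolation 2). Timp2 had 12.23 and 12.56 in the knockout, against 13.27 and 13.16 in the wild type (difference -0.82, limma adjusted p = 0.277). The lysosomal protease Ctsb differed by -0.62 and was highest in wild-type isolation 1, where the macrophage markers were highest as well. Without that array Ctsb differed by -0.35, and the part of macrophage RNA in its value was not tested.

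Of 13 genes that organise fibrils, 4 were higher and 4 lower without overlap, beside 23.0% and 22.0% of all genes tested. Fibromodulin, Fmod, a small proteoglycan that binds fibrils, had 9.22 and 9.41 in the knockout, against 7.98 and 6.23 in the wild type (difference 2.21, limma adjusted p = 0.354; 1.33 without wild-type isolation 2). Lumican, Lum, a related proteoglycan, had 12.81 and 12.78 in the knockout, against 12.38 and 10.13 in the wild type (difference 1.54, and 0.41 without wild-type isolation 2). Each had its lowest value in the array where most collagens did, that of wild-type isolation 2. Ecm1, a secreted matrix glycoprotein, had 10.18 and 9.34 in the knockout, against 10.99 and 11.10 in the wild type (difference -1.29, limma adjusted p = 0.312).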

How the data were processed

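Total RNA of untreated primary fibroblasts was measured on 4 Affymetrix arrays. The table the authors deposited gives a value for every probe set on every array, made with Affymetrix Expression Console per the submitters' processing notes. No version, summary algorithm or log base is stated there. From their range and near-equal medians, the deposited values were read as log2. Probe sets were named by the platform annotation, updated by Entrez identifier (RefSeq, GRCm38.p6), and those naming 0 or several genes were left out. Of several probe sets of a gene, the one with the highest 4-array mean stood for it, and a gene was tested where that mean exceeded 4.17, the 40th percentile of non-control probe sets. Knockout was compared with wild type over 13271 genes with limma 3.58.1 in R 4.3.3 (lmFit, eBayes, no block). P-values were adjusted by Benjamini-Hochberg over all these genes and called under 0.05. The fit had 2 residual and 2.38 prior degrees of freedom. The procedure was tested on simulated data, where it recovered 6.5% of planted differences of 1 log2 unit and 76.2% of those of 2. Differences of 1 to 4 log2 units were planted there, with independent normal noise, so these shares may not hold for the arrays. On the arrays, differences of 2.67 for Col14a1 and 2.21 for Fmod were not called, while the -3.20 of Adam9 was. A gene of the set that was not called may thus still differ.

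The members, gene lists, tests and alternatives were chosen with earlier results of these data known. Per-array values are given for every member measured, and the difference, its standard error and adjusted p for the 10 with the largest difference without overlap, since none passed. In each other pathway list up to 3 genes with the largest difference are named. The number of arrays limits the precision.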

Additional observations from a re-analysis of the deposited data

How the results depend on the processing

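No collagen or processing gene was called at an adjusted p under 0.05 in any of 14 other settings, and at an unadjusted p under 0.05 there were 5 in the setting reported. Over all genes tested 9 were called, against 2 with the isolation number as a replicate block and 0 with any 1 array left out. The same-numbered isolations are not stated to be paired (correlation of their deviations 0.116 across genes). Leaving out 1 array leaves 2 values against 1 and assumes that the lone array varies like the others. In these fits 6 to 17 genes of the set were higher and 12 to 18 lower without overlap. With 2 values against 1 the genotypes part more easily, and the share over all genes tested was not computed. These counts therefore cannot be compared with those from all arrays. Without 1 array 12 genes turned in direction, with lowest and highest differences of -0.0043 and 0.15 for Col1a2, -0.049 and 0.26 for Col3a1, -0.15 and 0.073 for Col5a1, -0.12 and 0.092 for Col5a2, -0.28 and 0.65 for Col6a1, -0.22 and 0.95 for Col6a2, -0.19 and 0.53 for Col6a3, -0.75 and 0.30 for Col8a1, -0.82 and 0.41 for Col23a1, -0.015 and 0.28 for Loxl1, -0.65 and 0.24 for Loxl4, and -0.50 and 0.37 for Pcolce2. Col5a2 also turned with median centring (0.0045) and with the mean over probe sets (0.17). In the other settings that keep all arrays the remaining genes kept their direction. The cause of these turns was not tested. With the stricter filter Col14a1 and Col23a1 were not tested.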
